A study of Homo sapiens with 34 samples.

Results

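The integrated stress response (ISR) genes described here were *ATF4*, *DDIT3*, *ATF3*, *ATF5*, *TRIB3*, *CEBPB*, *CEBPG*, and *NUPR1*. They were found as the 8 rows, of 28690 loci in the expression tables, whose gene names held 1 of these symbols. The 8 genes were chosen by name with earlier results of these data known, including their levels in the 2 conditions, so the difference in level between conditions is given as a description without a test. All 8 were among the 13979 loci with a mean of at least 1 FPKM (fragments scaled to transcript length and to the mapped reads of the library) over the 24 libraries. All but *TRIB3* encode DNA-binding or chromatin-associated regulators, and *TRIB3* encodes a pseudokinase rather than a transcription factor.

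The cells were *Bmal1*:*luc* U2OS, a human osteosarcoma line that stably carries a luciferase reporter under the *Bmal1* promoter. After a dexamethasone shock for synchronization, cultures received 5 mM 6-aminonicotinamide (6AN), which inhibits the NADPH-producing enzymes of the pentose phosphate pathway, or a matched amount of the solvent DMSO as control. RNA depleted of ribosomal RNA was sequenced at 12 time points, labelled CT00 to CT44 at steps of 4 hr, with 1 library for each condition and time point. The study's own plots start these samples about a day into the time course, so CT00 is the first sample taken and cannot be read as the start of 6AN treatment. ChIP-seq for BMAL1, CLOCK, and 2 histone marks came from 24 hr of treatment, with 1 library per antibody and condition. Dexamethasone, the reporter, and the single cell line were common to all libraries, and time in culture ran together with time under 6AN. *RUNX2*, *VIM*, and *SPARC*, expected in an osteoblast-like line, had mean levels of 13.99, 917, and 323 FPKM in control, whereas *COL1A2* was at or near 0 in all 24 libraries. *SPARC* and *COL1A1* lay lower under 6AN, at 129 and 33.9 FPKM against 323 and 128 FPKM. None of the 7 markers of blood, epithelial, endothelial, and liver cells reached a mean of 1 FPKM over the 24 libraries. The epithelial marker *EPCAM* had a mean of 1.02 FPKM in control alone and 0.734 FPKM under 6AN. The deposited tables give no read totals, but the spacing of low FPKM values gave each library's depth relative to the median of its table, which ranged from 0.581 to 1.31 in control and from 0.696 to 1.56 in 6AN.

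In the ISR, any of several stress-sensing kinases phosphorylates the translation initiation factor eIF2α, which lowers general protein synthesis while favoring translation of the *ATF4* mRNA through its upstream open reading frames. ATF4 pairs with C/EBP proteins such as CEBPG and CEBPB on composite C/EBP-ATF elements and activates genes for amino acid uptake and synthesis, for tRNA charging, and for further regulators. *DDIT3*, *ATF3*, *TRIB3*, and *NUPR1* are well-known targets of this program. Since ATF4 is controlled largely by translation, an mRNA level does not measure its protein.

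Promoter sequences from RefSeq (GRCh38.p14) were matched for 7 of the 8 genes, in 16 start site windows, and *NUPR1* had no entry. The 3 motifs searched on both strands in the 250 bases before each start were the C/EBP-ATF element as TGATGNAA, the cAMP response element as TGACGTCA, and the E-box bound by BMAL1 and CLOCK as CACGTG. Over all 35116 windows, 3.14%, 1.65%, and 6.34% held them. The *ATF4* stretch is shown because it held an E-box and met a BMAL1 peak, the *DDIT3* stretch because a shared BMAL1/CLOCK site lay on it, and the *ATF3* and *CEBPG* stretches because they held TGATGNAA. Capitals mark the motif, and each sequence runs 5′ to 3′ on the strand of the gene.
ATF4, chr22:39520309-39520558, plus strand: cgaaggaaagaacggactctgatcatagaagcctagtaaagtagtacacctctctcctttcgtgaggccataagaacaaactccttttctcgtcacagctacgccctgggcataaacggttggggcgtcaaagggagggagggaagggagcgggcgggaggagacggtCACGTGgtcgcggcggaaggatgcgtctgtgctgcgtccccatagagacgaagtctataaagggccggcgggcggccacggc
DDIT3, chr12:57520518-57520767, minus strand: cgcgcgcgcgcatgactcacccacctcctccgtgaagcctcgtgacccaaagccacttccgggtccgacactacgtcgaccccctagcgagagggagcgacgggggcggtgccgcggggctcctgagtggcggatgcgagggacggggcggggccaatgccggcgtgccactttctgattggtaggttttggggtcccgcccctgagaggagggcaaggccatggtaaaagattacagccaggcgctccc
ATF3, chr1:212565157-212565333, plus strand: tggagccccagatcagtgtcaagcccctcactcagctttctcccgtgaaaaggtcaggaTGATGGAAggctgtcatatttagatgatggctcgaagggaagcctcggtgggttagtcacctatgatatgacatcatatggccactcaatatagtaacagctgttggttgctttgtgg
CEBPG, chr19:33374060-33374089, plus strand: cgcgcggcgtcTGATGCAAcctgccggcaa
The E-box of *ATF4* began 82 bases before the start. The TGATGNAA matches began 191 bases before the first RefSeq start of *ATF3* and 42 bases before the second start of *CEBPG*. That *ATF3* start lay inside the deposited locus, and its window ended at chr1:212565406. Only the 177 bases before the locus are therefore given for *ATF3*. The *CEBPG* match lay inside the deposited locus, downstream of the first start, so only 30 bases are given. No match to TGACGTCA was present in the windows of the 7 genes. The windows of *DDIT3*, *ATF5*, *TRIB3*, and *CEBPB* held none of the 3 motifs, so the *DDIT3* stretch shown has no CACGTG.

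*ATF4*, the basic leucine zipper (bZIP) factor at the center of the response, had the highest median level of the 8 genes in control (chr22:39520559-39522686, hg38). In control its FPKM ranged from 419 at CT04 to 674 at CT44, with a median of 480.0. Under 6AN it ranged from 858 at CT00 to 1118 at CT44, with a median of 967. Every 6AN library lay above every control library, and the median log2 ratio over the 12 time points was 0.98 (SD 0.14, range 0.73 to 1.10). The log2 ratio was lowest at CT40, 0.73, and highest at CT24, 1.10. Log2 ratios here and below were taken on log2(FPKM + 1), 6AN over control at the same time label, and the 2 tables were normalized separately by the authors, so a shared scale between conditions is assumed and was not tested.

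*DDIT3* encodes CHOP, a C/EBP-family factor known for its part in stress-induced cell death. Its level in control ran from 15.4 FPKM at CT20 to 31.4 FPKM at CT44, with a median of 24.4. Under 6AN it ran from 52.7 FPKM at CT04 to 122 FPKM at CT44, with a median of 82.9. The lowest 6AN library was 1.68 times the highest control library, and the median log2 ratio was 1.88 (SD 0.42). The ratio was not steady, with log2 values of 1.01 and 1.11 at CT04 and CT08 and of 2.43 at CT20. The *DDIT3* row shared its deposited interval (chr12:57487953-57520517) with the row of *MARS*, the methionyl-tRNA synthetase gene, whose median log2 ratio was 0.42. How reads of overlapping genes were divided, and whether strand was used, is not given in the sources used here.

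*TRIB3* encodes a Tribbles pseudokinase that is induced by ATF4 and CHOP and is known to restrain their activity. In control its level stayed between 8.59 and 16.1 FPKM, with a median of 10.2. Under 6AN it rose from 28.2 FPKM at CT00 to 97.9 FPKM at CT44, with a lowest value of 27.8 at CT04 and a median of 46.1. The median log2 ratio was 2.10 (SD 0.48), from 1.26 at CT00 to a maximum of 2.80 at CT32, and no 6AN library fell within the control range. As a ratio of FPKM, the 6AN library was 2.52-fold of control in the first sample, CT00, and 6.53-fold in the last, CT44.

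*ATF3*, a stress-induced bZIP factor that often represses, had the lowest level of the 8 genes in both conditions (chr1:212565334-212620777). Control values ran from 3.91 to 7.11 FPKM, with a median of 5.74, and 6AN values from 10.98 to 16.6 FPKM, with a median of 12.4. The groups did not overlap, and the median log2 ratio was 1.03 (SD 0.20). The highest 6AN value was at CT20, between neighbors of 11.4 and 11.9 FPKM at CT16 and CT24.

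*CEBPG*, a C/EBP protein without a transactivation domain that dimerizes with ATF4, ran from 11.6 to 18.0 FPKM in control, with a median of 14.02. Under 6AN it ran from 23.04 FPKM at CT00 to 35.5 FPKM at CT44, with a median of 30.8. The ranges were apart, and the median log2 ratio was 0.99 (SD 0.17). The lowest log2 ratio was at CT00, 0.55, and the highest at CT28, 1.25.

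*CEBPB*, a C/EBP activator of inflammatory and metabolic genes, showed the smallest median difference of the 8. It ran from 48.0 to 72.2 FPKM in control, with a median of 54.8, and from 71.2 to 100.8 FPKM under 6AN, with a median of 84.7. It was higher under 6AN at each of the 12 time points (median log2 ratio 0.59, SD 0.11), but the ranges overlapped, since the 6AN library at CT00 (71.2 FPKM) lay below the control library at CT36 (72.2 FPKM). The antisense row *CEBPB-AS1* shared the interval at a median of 0.792 FPKM in control and 1.15 FPKM under 6AN.

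*NUPR1* encodes a small, intrinsically disordered chromatin-associated coregulator induced by many stresses. Its level ran from 47.1 FPKM at CT16 to 100.6 FPKM at CT44 in control, with a median of 67.4. Under 6AN it ran from 135 FPKM at CT04 to 203 FPKM at CT40, with a median of 185. The ranges were apart, and the median log2 ratio was 1.20 (SD 0.28). The log2 ratio lay between 1.69 and 1.71 from CT16 to CT24 and was 0.94 at CT44, where the control level was at its highest.

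*ATF5*, a bZIP factor of the mitochondrial stress response, could not be read in the same way. Its row also named the microRNA gene *MIR4751* and its interval was shared with a row naming *IL4I1* and *NUP62*. Control values ran from 14.2 to 884 FPKM, with a median of 21.2, and 6AN values from 20.7 to 1080.0 FPKM, with a median of 196. Values jumped between libraries, as in control, where 884 FPKM at CT04 was followed by 17.9 at CT08. The high control values were 408 FPKM at CT00, 884 at CT04, and 592 at CT28. At the other time points control lay between 14.2 and 93.7 FPKM. The 6AN library was higher at 9 of 12 time points, and the log2 ratio ran from -5.35 at CT04 to 5.88 at CT16 (median 2.23, SD 3.38). The conditions overlapped almost fully, with 11 of 12 6AN libraries at or below the highest control library. The microRNA row *MIR6758*, inside the *DDIT3* interval, also jumped between libraries, from 0 to 3321 FPKM in control. The part of the microRNA in the *ATF5* values was not tested.

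**Figure D1:**
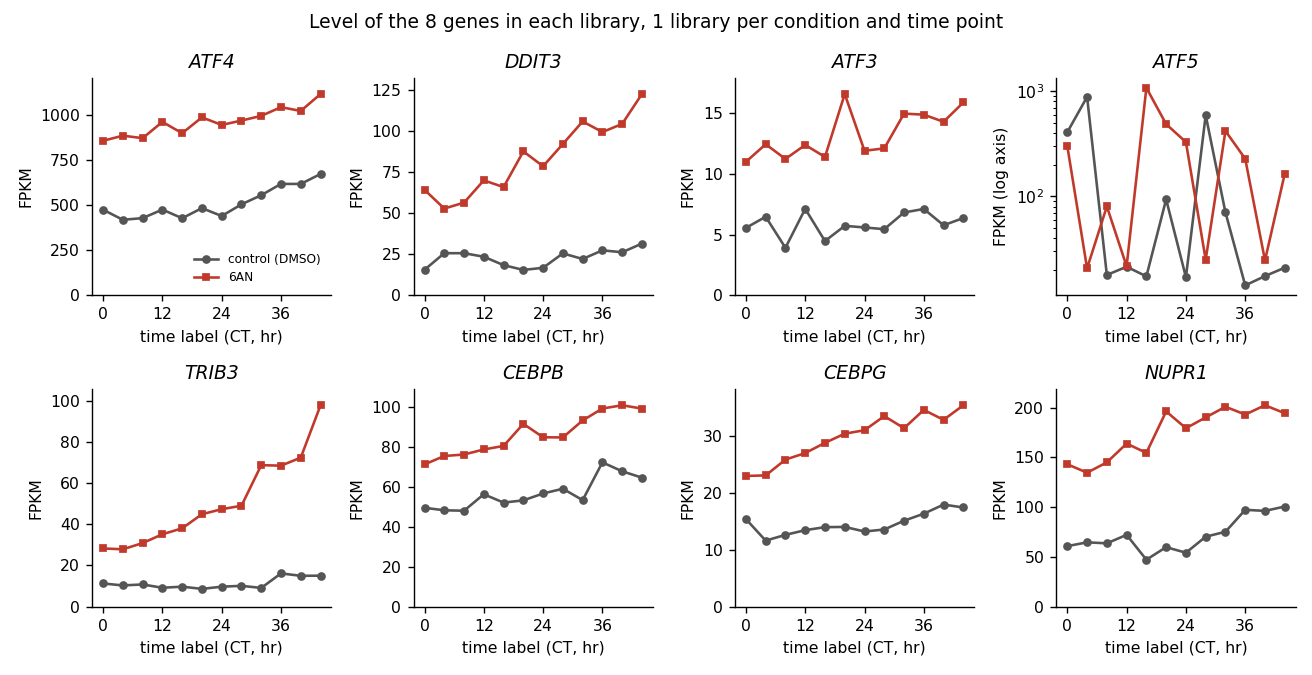
FPKM of each gene (y axis, *ATF5* on a log axis) against the time label in hr (x axis), with control in gray circles and 6AN in red squares, 1 library per point. In 6 genes every 6AN point lies above every control point, in *CEBPB* 1 of the 12 6AN points lies below the highest control point, and *ATF5* jumps between 14.2 and 1080.0 FPKM.

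Of the 8 genes, 6 had ranges that did not overlap with the higher level under 6AN, where 5.89% of the 13979 tested loci did. This share is given as a description, since the genes were selected on their levels. At all 12 time points, 7 were higher, against 13% of loci, and none was lower without overlap, against 10.3%. A median log2 ratio of at least 1 was found for *TRIB3*, *DDIT3*, *NUPR1*, and *ATF3*, which are 4 of the 7 genes other than *ATF5*, against 0.987% of loci. With the erratic row of *ATF5* the count was 5 of 8, and *CEBPG* and *ATF4* lay just under that value at 0.99 and 0.98. The median over all tested loci was -0.03.

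**Figure D2:**
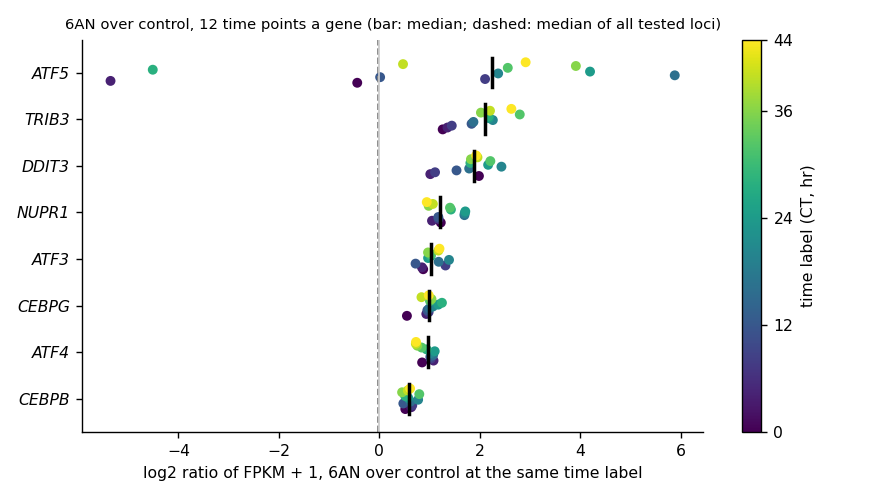
Log2 ratio of FPKM + 1, 6AN over control (x axis), for each gene (y axis), with 1 point for each of the 12 time points colored by time label, a bar at the median, and a dashed line at the median of all tested loci (-0.03). The points of 7 genes all lie above 0, and those of *ATF5* spread from -5.35 to 5.88.

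FPKM is scaled to transcript length, so levels can be ordered between genes. In control the medians fell in the order *ATF4*, *NUPR1*, *CEBPB*, *DDIT3*, *ATF5*, *CEBPG*, *TRIB3*, and *ATF3*. Neighbors in this order were apart in their ranges only between *ATF4* and *NUPR1*, between *CEBPB* and *DDIT3*, and between *TRIB3* and *ATF3*. Under 6AN the order was *ATF4*, *ATF5*, *NUPR1*, *CEBPB*, *DDIT3*, *TRIB3*, *CEBPG*, and *ATF3*. *TRIB3* lay below *CEBPG* at all 12 time points in control and above it at all 12 under 6AN. *DDIT3* had a median of 82.9 FPKM under 6AN, next to 84.7 FPKM for *CEBPB*, which was higher at 7 of 12 time points, whereas in control *CEBPB* lay above *DDIT3* at all 12.

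Change over time was then tested within each table, which needs no common scale. A linear slope, with cosine and sine terms of 24 hr in the same fit, was estimated on log2(FPKM + 1) with limma across all 13979 loci, and p-values were adjusted by the Benjamini-Hochberg method with calls at 0.05. The 12 time points are not replicates, so these p-values set each slope against the scatter around the line. Under 6AN, 6 of the 8 genes rose, where 11% of loci did. The genes were chosen with earlier results of these same libraries known. This share and those given below for the other slopes are therefore descriptions and not independent support. The steepest slope was that of *TRIB3*, 0.47 per 12 hr on the log2 scale (SE 0.03, limma adjusted p = 5.9e-05). *DDIT3* rose by 0.30 per 12 hr (SE 0.04, limma adjusted p = 0.00073). *CEBPG*, *NUPR1*, *CEBPB*, and *ATF4* rose by 0.16, 0.16, 0.13, and 0.08 per 12 hr, with limma adjusted p-values between 0.00062 and 0.0045. The slope of *ATF3* was 0.10 (SE 0.04, limma adjusted p = 0.0999), and that of *ATF5* was -0.11 with an SE of 0.55.

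In control, 2 of the 8 genes rose, against 2.63% of loci. These were *ATF4*, at 0.16 per 12 hr (SE 0.04, limma adjusted p = 0.036), and *CEBPB*, at 0.12 (SE 0.03, limma adjusted p = 0.040). Both calls were close to the threshold and were each lost in 10 of the 12 fits that left out a time point, with adjusted p-values between 0.011 and 0.119 for *ATF4* and between 0.019 and 0.093 for *CEBPB*. The *NUPR1* slope was 0.21 in control (SE 0.07, limma adjusted p = 0.127), and the slopes of *DDIT3*, *TRIB3*, *CEBPG*, and *ATF3* lay between 0.07 and 0.16 with adjusted p-values of at least 0.184. The slope of *ATF4* was thus called in both conditions, and its mean level over the last 6 time points was 1.26 times that over the first 6 in control and 1.12 times under 6AN.

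Whether the slopes differed between conditions was tested in 1 fit with a separate intercept for each table. *TRIB3* was called, with a slope 0.35 per 12 hr steeper under 6AN (SE 0.08, limma adjusted p = 0.0084), where 3.47% of loci were called in this direction. Its mean over the last 6 time points was 1.97 times that over the first 6 under 6AN and 1.26 times in control. The call held without each time point in turn, with adjusted p-values from 0.0065 to 0.035. When the last 6 time points were set against the first 6 in place of a line, the adjusted p was 0.053. For *DDIT3* the difference was 0.15 (SE 0.08, limma adjusted p = 0.303), for *CEBPG* 0.08 (SE 0.04, limma adjusted p = 0.256), and for *ATF4* -0.08 (SE 0.04, limma adjusted p = 0.275). For *CEBPB* it was 0.01 with an SE of 0.03.

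**Figure D3:**
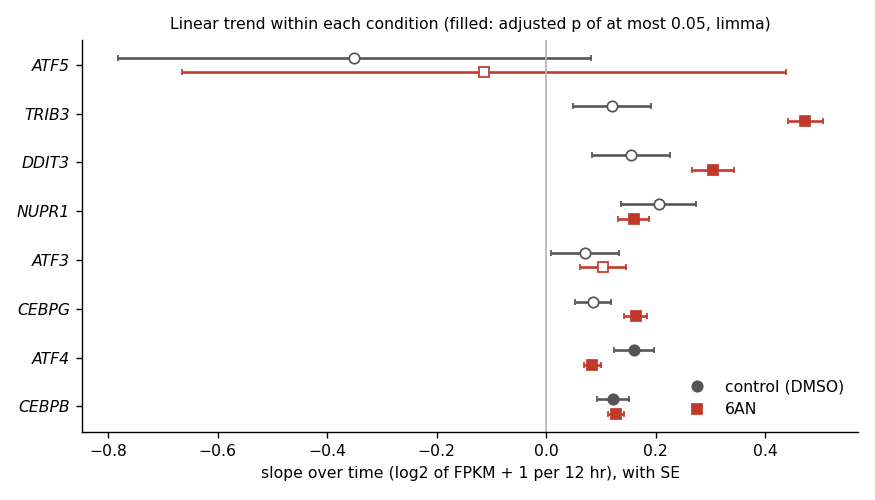
Slope of log2(FPKM + 1) per 12 hr (x axis) for each gene (y axis), with SE bars, in control (gray circles) and 6AN (red squares). Filled symbols passed the adjusted threshold of 0.05. The *TRIB3* slope is 0.47 under 6AN and 0.12 in control, while the *CEBPB* slopes nearly coincide.

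None of the 8 genes had a 24 hr rhythm at the adjusted threshold in either condition, and none had an unadjusted p under 0.05. In the same limma fit, a cosine with a linear time term, 1 locus was called in control (0.00715% of loci) and 0 under 6AN, whereas 949 and 1093 loci had an unadjusted p under 0.05. The fitted amplitude without *ATF5* ran from 0.03 for *ATF4* to 0.23 for *DDIT3* in control and was at most 0.06 under 6AN, on the log2 scale. For *ATF5* the amplitude was 1.99 in control (limma unadjusted p = 0.053, adjusted p = 0.730) and 1.10 under 6AN (limma adjusted p = 0.865). Without the linear time term, the *ATF5* control fit had an unadjusted p of 0.018 (limma adjusted p = 0.941). The control values of *DDIT3*, higher from CT04 to CT12, lower from CT16 to CT24, and higher again from CT28, gave the amplitude of 0.23 (limma adjusted p = 0.824).

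How the genes followed each other over time was described by correlation. For the 7 genes other than *ATF5*, across the 12 time points, Pearson's r of log2(FPKM + 1) between pairs had a median of 0.90 over the 21 pairs under 6AN (0.64 to 0.96) and of 0.70 in control (0.20 to 0.91). The highest was *DDIT3* with *TRIB3* under 6AN, 0.96, and in control the same pair had 0.61. In control the highest was *ATF4* with *NUPR1*, 0.91. Pairs with *ATF5* had medians of 0.13 under 6AN and -0.30 in control. These values are descriptions over libraries that share a table and a time axis. Slopes over time were called for 6 of the 8 genes under 6AN and 2 in control, a common slope enters every r, and the difference between conditions was not tested.

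The loci most like each gene were sought among 10082 others with a mean of at least 5 FPKM, by Pearson's r over the 24 libraries after each condition's own mean was subtracted. For *ATF4* they were *MTHFD2* (0.96), *YARS* (0.95), and *ASNS* (0.95). For *CEBPG* they were *NARS* (0.93), *MAP4K4* (0.92), and *RCN1* (0.92), and for *NUPR1* they were *PSAT1* (0.92), *SLC1A5* (0.89), and *SHMT2* (0.88). For *TRIB3*, *SESN2* came first (0.91), followed by *EIF4B* and *FKBP9* (0.90 each), and for *CEBPB*, *GPT2*, *ARHGEF2*, and *GDF15* (0.91 to 0.90). *DDIT3* was closest to *C6orf48*, *DDR2*, and *LMO4* (0.86 to 0.85). *ATF3* was closest to *LARP6*, *TMEM261*, and *SPX* (0.73 to 0.71), and *ATF5* to *SNX1*, *SCARNA14*, and *ORC5* (0.67 to 0.60).

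Other genes of the pathway were described by lists. The lists were also chosen with earlier results of these data known, so their shares against all loci are descriptions. Of 42 ISR target genes, 39 were expressed, 12 were higher under 6AN without overlap (30.8%, against 5.89% of all loci) and 0 lower, and the list median of the log2 ratio was 0.67, against -0.03 over all loci. Over time, 30 of the 39 rose under 6AN (76.9%, against 11% of all loci) and 0 fell. In control 14 rose (35.9%, against 2.63%). The list median slopes were nearly equal, at 0.134 per 12 hr under 6AN and 0.129 in control. The difference in counts therefore does not show a steeper rise under 6AN. The largest median log2 ratios were 1.57 for *CHAC1*, which degrades glutathione, and 1.33 for *ASNS*, the asparagine synthetase. Their ranges nonetheless overlapped between conditions, with *ASNS* at 24.3 to 76.3 FPKM in control and 65.7 to 121 FPKM under 6AN, and *CHAC1* rose in control by 0.64 per 12 hr (limma adjusted p = 0.0027). The lowest were *ERO1L*, an oxidase of protein folding in the endoplasmic reticulum (ER), at -0.24, and *DDIT4*, an inhibitor of mTORC1, at -0.11.

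A list of 20 genes upstream of ATF4 included the 4 eIF2α kinases, the eIF2 and eIF2B subunits, and the phosphatase subunits, among others. Of the 20, 4 were higher without overlap (20%, against 5.89% of all loci) and 0 lower (against 10.3%), with a median of -0.06. The 4 kinase genes all had overlapping ranges, with median log2 ratios from -0.28 to -0.10. The highest was *PPP1R15A*, the stress-induced phosphatase subunit that is also counted among the targets, at 27.7 to 45.7 FPKM in control and 73.6 to 119 FPKM under 6AN (median log2 ratio 1.26). It was followed by *PPP1R15B*, the constitutive subunit, at 0.52. The lowest were *EIF2S1*, which encodes eIF2α, and the kinase gene *EIF2AK2*, both at -0.28. Of 16 genes of the other arms of the ER stress response, driven by ATF6 and XBP1, 0 were higher without overlap and 3 lower (18.8%, against 10.3% of all loci), with a median of -0.33. The co-chaperone *DNAJB9* and the ubiquitin ligase *SYVN1* were highest, at 0.38 and 0.37, and *SDF2L1* and *CRELD2*, both of ER protein folding, lowest, at -0.67 and -0.65.

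Among 20 related bZIP and Tribbles genes, 17 were expressed, 2 were higher without overlap (11.8%, against 5.89% of all loci) and 0 lower (against 10.3%), and the median was -0.08. The 2 were *JDP2*, a repressor close to ATF3 that is also counted among the targets (0.87), and *TRIB1* (0.79). In contrast to *TRIB3*, *TRIB2* had a median of -0.57 and fell over time under 6AN, with a slope of -0.31 per 12 hr (limma adjusted p = 0.00024). *CREB3L1*, an ER-bound bZIP factor, also had -0.57.

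**Figure D4:**
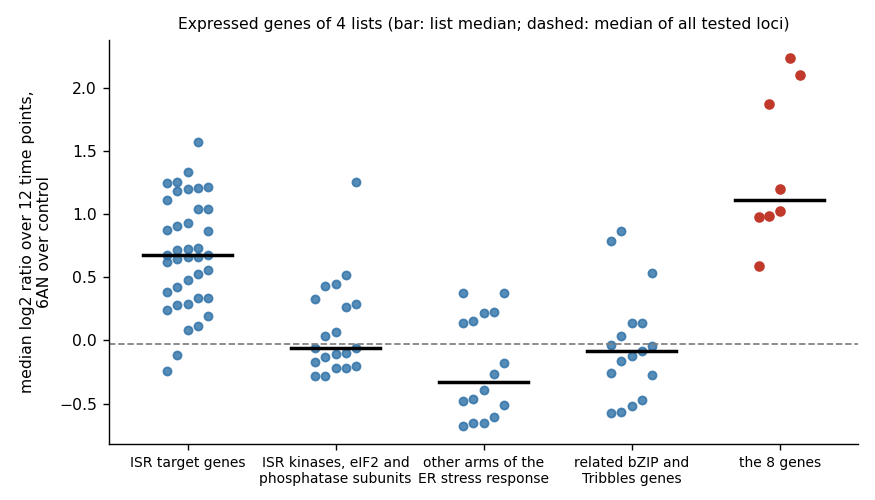
Median log2 ratio over 12 time points, 6AN over control (y axis), for the expressed genes of 4 lists and for the 8 genes in red (x axis), with bars at the list medians and a dashed line at the median of all tested loci (-0.03). The ISR targets center on 0.67, the other ER stress genes on -0.33, and the 8 genes lie between 0.59 and 2.23. The highest of the 8 is the erratic row of *ATF5*, and the next is *TRIB3* at 2.10.

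BMAL1 and CLOCK peaks around the 8 loci were then listed, since the study asked how 6AN changes binding of these clock factors. At least 1 peak in any of the 4 libraries lay within 50 kb of 5 of the 8 loci, where 46.9% of loci had one, so this count is near the background. Distances were taken from the edges of the deposited intervals. *ATF5* was counted through an interval that it shares with *IL4I1* and *NUP62* and that begins upstream of its first RefSeq start. A site listed by the authors as shared by BMAL1 and CLOCK under 6AN lay within 50 kb of 1 locus, *DDIT3*, against 7.01% of loci. *TRIB3* had 5 peaks between 53.2 and 83.0 kb away, and *CEBPG* had no peak within 100 kb.

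The *DDIT3* site (chr12:57520225-57521225) was annotated by the authors to the promoter, 208 bases upstream of the start. It was among the 439 shared sites of 6AN and none of the 147 of control started within 200 bases of its start. The merged peak (chr12:57520619-57520909) was called in BMAL1 control, BMAL1 6AN, and CLOCK 6AN, and covered 149 of the 250 bases shown above for *DDIT3*. Signal at the site, in tags per 10000000 total tags, was 34.8 for BMAL1 in control and 51.9 under 6AN. For CLOCK it was 23.3 in control and 58.2 under 6AN, which came to about 9.50 and 26.5 tags. The input library also differed, with 10.1 in control and 16.6 under 6AN. H3K4me3 was 120.2 and 157 and H3K9ac was 114 and 129.8. The log2 change of CLOCK, 1.29, compared with a median of 1.104 over the 439 sites, of which 61.0% changed less, and that of BMAL1, 0.56, with a median of 0.46. With 1 library per condition these differences have no replicate check, and the site was listed because it was called under 6AN.

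**Figure D5:**
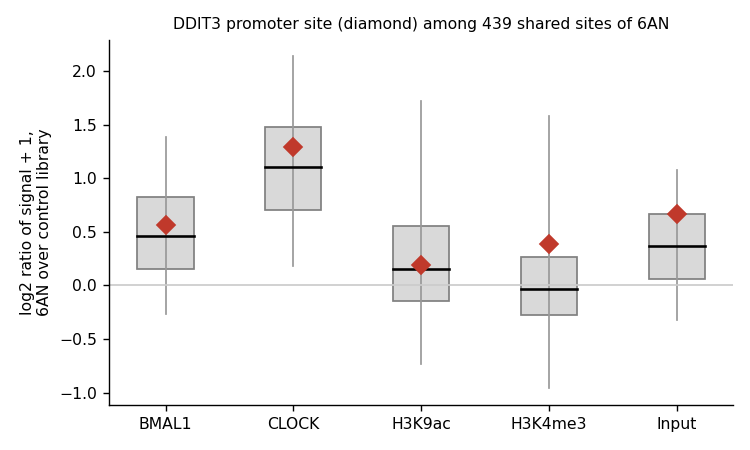
Log2 ratio of signal + 1, 6AN over control library (y axis), for each ChIP-seq target and input (x axis). Boxes span the 25th to 75th percentile of the 439 shared sites with a line at the median, whiskers span the 5th to 95th, and the red diamond is the *DDIT3* promoter site, at 1.29 for CLOCK, 0.56 for BMAL1, and 0.67 for input.

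At *ATF4*, a BMAL1 peak was called in control only (chr22:39520538-39520737), over the start of the gene and the last 21 bases of the stretch shown above, outside its E-box. A BMAL1 peak in 6AN lay 10.03 kb from the locus. *ATF3* had a BMAL1 peak called in control within the gene (chr1:212608597-212608796). *NUPR1* had a BMAL1 peak in 6AN 14.9 kb away. Peaks lay 11.95 and 38.3 kb from the deposited interval of *ATF5*, upstream of its edge at chr19:49889656. That interval is shared with *IL4I1* and *NUP62*, and the first RefSeq start window of *ATF5* ends at chr19:49928905. The peaks therefore lie farther from that start than these distances. A call in 1 library and not in the other does not show a difference in binding, and it was not tested.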

How the data were processed

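RNA-seq of 24 libraries and ChIP-seq of 10 libraries from *Bmal1*:*luc* U2OS cells were used. The authors deposited FPKM values made from single-end 50 bp reads with Bowtie, TopHat, and Cufflinks on hg38, per the submitters' notes, in 1 table per condition, each normalized separately. The ChIP-seq reads were processed by the authors with Bowtie2 and HOMER, and they deposited the signal in 1000 bp around each shared site as tags scaled to 10000000 per library. The merged peak list also holds a HOMER peak score deposited by the authors, which was not used. Tool versions are not given in the sources used here. RNA was extracted in triplicate per the methods, and pooling is not stated, so p-values measure scatter between time points only.

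The members and gene lists were chosen with earlier results of these data known. Genes named from the lists were the 2 highest and 2 lowest by median log2 ratio. The cell type markers *COL1A2* and *EPCAM* were named after their values were seen. For each member the 3 most similar loci were also named. *MARS*, *MIR6758*, *CEBPB-AS1*, *IL4I1*, and *NUP62* were named after their values were seen because they share an interval with a member. Levels were compared with a pseudocount of 1 and no test. Trends and rhythms were tested with limma 3.58.1 (R 4.3.3, eBayes with trend, two-sided) over the 13979 loci with a mean FPKM of at least 1, with Benjamini-Hochberg adjustment, after the scripts were tested on simulated data. Peaks were counted within 50 kb of the deposited interval of each locus. Alternatives were a pseudocount of 0.1, other filters and scalings, other time terms, other peak windows, and each time point left out.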

Additional observations from a re-analysis of the deposited data

Results flagged for a closer look

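The slope of *TRIB3* over time differed between conditions by a test of the difference itself. It was 0.47 per 12 hr on the log2 scale under 6AN and 0.12 in control, a difference of 0.35 (SE 0.08, limma adjusted p = 0.0084). *TRIB3* was higher under 6AN at 12 of 12 time points, and the log2 ratio was 1.26 at CT00 and 2.63 at CT44. Across the 18 alternatives the adjusted p for this difference ran from 0.0058 to 0.053.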

How the results depend on the processing

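In all 17 alternatives for the slope, the 6 genes that rose under 6AN kept their calls (*ATF4*, *DDIT3*, *TRIB3*, *CEBPB*, *CEBPG*, *NUPR1*). In the alternatives for the level, 6 or 7 genes lay above control without overlap, the seventh being *CEBPB* without CT00 or without CT36. With a time point left out, 846 to 909 of all tested loci did so (6.05% to 6.50%). Without the *ATF5* row, an alternative chosen after seeing the data, 6 of 7 genes lay above control without overlap, against 5.89% of loci in the main setting. In control, the *ATF4* and *CEBPB* calls were also lost with no filter on low values, at adjusted p-values of 0.060 and 0.065, where more loci were tested, and the *ATF4* call when the last 6 time points were set against the first 6 (0.079). *CEBPG* was called in control without CT00 (0.0045) and *ATF3* under 6AN without CT20 (0.022). The loci called, 781 for the trend in control, 3391 in 6AN, and 1145 for the difference, ranged from 465 to 697, from 2222 to 3342, and from 728 to 1103 when a time point was left out. For the rhythm they ranged from 0 to 2 in control and from 0 to 1 in 6AN, and without the trend term the control count was 0. Dividing each library by its median changed the split of higher and lower differences from 485 and 660 to 781 and 589. Slopes that changed sign, none of them called, were those of *ATF5* in 6AN (-0.50 to 0.19 without a time point) and the differences of *ATF3* (-0.0067 to 0.067), *ATF5* (-0.11 to 0.67), *CEBPB* (-0.022 to 0.019, and -0.027 between the last and first 6 time points), and *NUPR1* (-0.095 to 0.029). Within 10 kb, 3 loci had a BMAL1 or CLOCK peak, and within 100 kb, 7 had one and 2 had a shared site. The shares of all loci at these 2 windows are not given here. Within 50 kb they were 46.9% for a peak and 7.01% for a shared site, so these counts are not read as a result about the 8 genes. The cause of these changes was not tested unless stated. With libraries of the same time label as pairs (time point as a replicate block, chosen after seeing the data), 1376 loci were called for the difference of slopes, and of the 8 genes again *TRIB3* alone (limma adjusted p = 0.014). The pairs share a time label, and nothing in the labels ties them to a shared culture. Without read counts, counting error could not be given for any FPKM value.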
